A study of Homo sapiens with 12 samples.

Results

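The tumor necrosis factor (TNF) superfamily ligands and death receptors described here are 10 genes chosen by name: the ligands TNFSF10 and TNFSF13B, the soluble decoy receptor TNFRSF11B, the death receptors TNFRSF10A, TNFRSF10B, FAS and TNFRSF1A, and the receptors TNFRSF1B, TNFRSF12A and CD40. Of these, 9 had a row in both deposited tables, which list 16101 and 15991 genes. TNFRSF10A is not listed in either table and is not analysed here. RNA-seq of poly(A)-selected RNA was performed on HT1080, a human fibrosarcoma cell line labelled as wild type (wt). The first table holds 3 untreated control libraries and 3 libraries of cells exposed to PMA (phorbol 12-myristate 13-acetate, an activator of protein kinase C) at 40 nM. The second holds 3 other untreated controls and 3 libraries of cells exposed to ConA (concanavalin A, a lectin from jack bean that binds mannose-rich glycans) at 40 µg/mL. Treatment lasted 24 h, and all 4 groups, controls included, were kept in biotin-depleted medium with 1% serum. The labels do not say that replicates were separate cultures, so p-values measure only the spread between these libraries.

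TNF superfamily ligands are trimeric proteins, made on the cell membrane or released by proteases, that bring receptor chains together on the target cell. Receptors with a cytoplasmic death domain can recruit FADD and caspase-8 and start apoptosis, whereas receptors without one bind TRAF adaptors and feed NF-kB and MAP kinase signaling. Decoy receptors bind ligand without passing on a signal. TNFSF10 and TNFSF13B are known to be induced by interferons in many cell types, and TNFRSF12A by growth factors.

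Values are the deposited normalized counts, so each treatment was compared with the controls of its own table. A gene was called changed when its log2 fold change was at least 1 in size and its adjusted p was at most 0.0001 in limma, a linear model fitted across all genes with the p-values adjusted by the Benjamini-Hochberg method. Depth, estimated from the steps between low values, was 33639306 to 45593637 reads per library. In bulk RNA, fewer cells expressing a gene and less RNA per cell cannot be told apart. Markers of the labelled cell type and of others were looked up, though having a row does not by itself establish identity. Of 10 fibrosarcoma and mesenchymal genes, all 10 were listed in the PMA table and 9 of 10 in the ConA table, where THY1 had no row. Their summed level was 664701 to 672739 in PMA controls and 838412 to 902810 in ConA controls. NT5E was low, at 11.7 to 30.4 and 4.00 to 10.4 in these controls. SPARC was called lower with PMA (log2 fold change -1.53). With ConA, S100A4 was called lower (-1.05) and NT5E higher (2.98). Erythroid markers had no row. Myeloid genes were listed for 6 of 8 markers in the PMA table and 5 of 8 in the ConA table, with CD14 and TYROBP lacking a row in both. Endothelial genes were listed for 4 of 5 in each table, without CDH5, and epithelial genes for 2 of 6 and 5 of 6. CD68, a lysosomal protein that is not limited to macrophages, held 4935 to 7362 normalized counts in the PMA table and was called with ConA (5742 to 6142 in controls, 17142 to 20414 treated, log2 fold change 1.67). FCER1G was called with PMA (4.51 to 12.0 in controls, 44.1 to 65.6 treated, log2 fold change 2.53), and CD22 held 381 to 867 in the PMA table and 199 to 426 in the ConA table without being called. Genes of T and NK cells, which HT1080 should lack, were nevertheless listed in the PMA table, in controls and treated libraries alike. Without CCL5, which tumor cells can also make, the summed level of the other 9 T and NK markers was 838 to 905 in PMA controls and 1116 to 1796 with PMA. Of these 9, 8 had no row in the ConA table and CD3D alone summed to 21.6 to 31.0 over the 6 libraries.

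The genomic sequence before the start sites is shown first, because the ligands had the largest changes with ConA. Motif results from RefSeq promoter windows (GRCh38.p14) are given for 5 of the 9 genes, with 8 windows in all. The promoters of the other genes were not searched, so whether they hold these motifs is not known here. The 250 bases before each start were searched on both strands for 4 motifs. These were the interferon-stimulated response element core GAAANNGAA, the gamma-activated site TTCNNNGAA, the AP-1 site TGANTCA and the NF-kB site. TNFSF10 held 2 matches to the response element core, at 186 and 54 bases before the start. TNFSF13B held 1, at 71 bases before the second of its starts, and TNFRSF1B held 1, at 9 bases before its start. The core occurred in 6.88% of all 35116 windows. None of the matches overlapped another motif searched. The matches are shown in capitals below, in a longer stretch for the distal TNFSF10 match and in 30 bases for the others, each read 5′ to 3′ on the strand of the gene:
TNFSF10 distal (chr3:172523508-172523680, minus strand): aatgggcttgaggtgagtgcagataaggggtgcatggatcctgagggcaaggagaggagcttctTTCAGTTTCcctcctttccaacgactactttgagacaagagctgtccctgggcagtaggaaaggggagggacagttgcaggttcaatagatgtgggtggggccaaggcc
TNFSF10 proximal (chr3:172523465-172523494, minus strand): aaacaactcaTTCGCTTTCatttcctcact
TNFSF13B (chr13:108269637-108269666, plus strand): tacaaaaactGAAAGTGAAatgaggaagac
TNFRSF1B (chr1:12166961-12166990, plus strand): tggcccgctggggcgcgggctTTCGCTTTC
Capitals that read TTCNNTTTC are the same core on the opposite strand. In the window of TNFRSF1A none of the 4 motifs matched. The 3 windows of FAS held no response element core, 1 AP-1 match at 242 bases before a start and 1 NF-kB match at 157 bases before another. The gamma-activated site was found in 6.57%, the AP-1 site in 6.57% and the NF-kB site in 5.21% of all windows. A match is a run of letters and not a measured binding site.

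ConA raised 5 of the 9 genes past the thresholds (TNFSF10, TNFSF13B, TNFRSF11B, TNFRSF1B and CD40) and lowered 0, where 5.83% of all 15139 genes tested rose and 2.88% fell. PMA raised TNFRSF12A alone and lowered TNFSF13B and TNFRSF11B, where 4.03% of 15153 genes rose and 4.61% fell. TNFSF13B and TNFRSF11B were therefore called in opposite directions in the 2 treatments. TNFSF10 also lay below its controls with PMA, but did not pass the thresholds there. Control and treated libraries did not overlap for 8 of 9 genes with PMA and for 8 of 9 with ConA. That is common in these tables, where the same held for 67.9% and 69.3% of all genes tested. The exact two-sided permutation test gave p = 0.1 for each gene without overlap, the smallest that 3 against 3 libraries allow, so calls rest on limma. The median log2 fold change over the 9 genes was 1.0 with ConA and -0.47 with PMA, beside a median of 0.0 over all genes tested in each table.

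**Figure D1:**
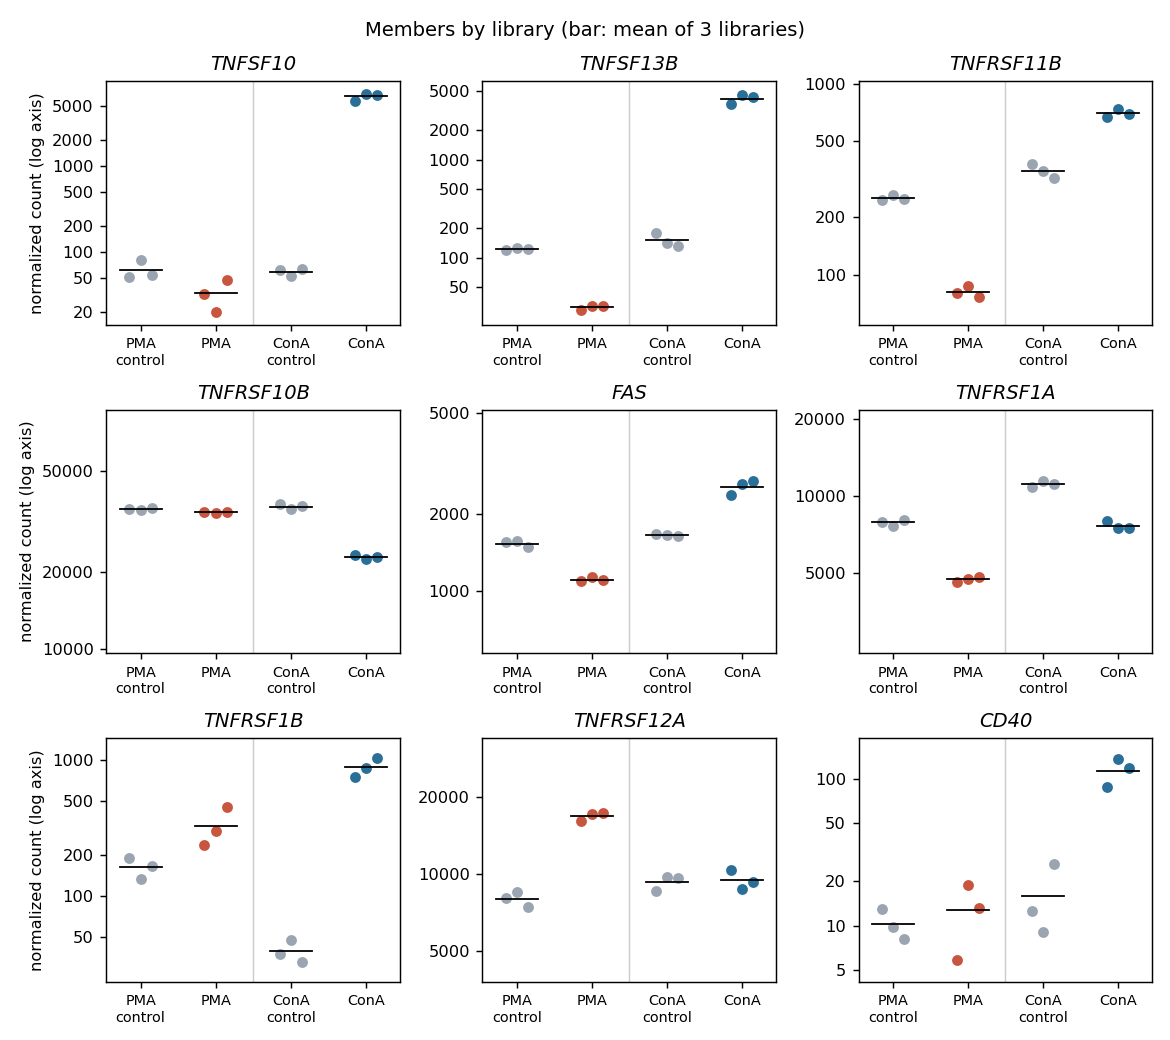
Normalized counts of the 9 genes (log axis, a scale of its own in each panel) in the 3 PMA controls, 3 PMA, 3 ConA controls and 3 ConA libraries, with a bar at each group mean. The PMA and ConA tables, split by the vertical line, were normalized separately. TNFSF10 stands at 5659 to 6907 in the ConA libraries and below 82 in the other 9.

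TNFSF10 encodes TRAIL, the ligand of the death receptors TNFRSF10A and TNFRSF10B. In the ConA table its normalized counts were 62.5, 52.0 and 63.1 in the controls and 5659, 6907 and 6617 with ConA. Every treated library was far above every control. The mean was 59.2 ± 6.24 in the controls and 6394 ± 653 with ConA (SD, n = 3), a 108-fold increase, and the log2 fold change was 6.73 (95% interval 6.53 to 6.94, limma adjusted p = 3.43e-16). In the PMA table the controls held 51.6, 81.4 and 54.2 and the treated libraries 32.5, 20.0 and 46.7. The treated libraries were the lower ones and the groups did not overlap, although the highest PMA library lay close to the lowest control. The log2 fold change of -0.95 (95% interval -1.60 to -0.30, limma adjusted p = 0.0154) did not pass the thresholds.

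TNFSF13B encodes BAFF, a survival factor for B cells. ConA libraries held 3663, 4516 and 4310 normalized counts, against 179, 141 and 132 in their controls. This 27.6-fold increase (log2 fold change 4.78 ± 0.11 SE, limma adjusted p = 6.22e-14) left no overlap between the groups. PMA moved the gene the other way. Its controls held 119, 125 and 124, and the PMA libraries 29.02, 32.3 and 32.3. The 3 treated libraries were nearly alike and all lay below the controls, with controls 3.93-fold above treated (log2 fold change -1.94 ± 0.15 SE, limma adjusted p = 4.76e-07).

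TNFRSF11B encodes osteoprotegerin, a secreted decoy receptor that binds TRAIL and RANKL. In the PMA table its controls held 245, 261 and 250 normalized counts and the treated libraries 80.1, 87.5 and 76.6. All PMA libraries were below all controls, and the log2 fold change was -1.62 ± 0.11 SE (limma adjusted p = 1.21e-07). With ConA the counts were 671, 740 and 696, against 381, 348 and 322 in the controls. All ConA libraries were above all controls, and the log2 fold change of 1.00 (95% interval 0.82 to 1.19, limma adjusted p = 1.56e-07) sat at the fold threshold. The ConA call was lost without ConA control replicate 6 (0.94) or ConA replicate 2 (0.97), and the settings that ended it are given with the other alternatives. TNFRSF10C, a membrane-bound TRAIL decoy outside the 9 genes and named after its values were seen, averaged 57.6 ± 12.5 in PMA controls and 21.2 ± 3.92 with PMA (SD, n = 3, log2 fold change -1.39, limma adjusted p = 0.000353, not called), and 60.6 ± 11.1 and 61.4 ± 6.54 in ConA controls and with ConA.

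TNFRSF10B encodes DR5, the TRAIL receptor with a death domain that these tables list. Its normalized counts were 35473, 35241 and 35729 in PMA controls and 34398, 34316 and 34398 with PMA. The treated libraries were lower by a small part of the control level, at a ratio of controls to treated of 1.03, with a log2 fold change of -0.05 (95% interval -0.12 to 0.03, limma adjusted p = 0.28). In the ConA table the controls held 36982, 35286 and 36274 and the treated libraries 23431, 22677 and 23085. All ConA libraries were lower, with controls 1.57-fold above treated. The log2 fold change of -0.65 (95% interval -0.76 to -0.54, limma adjusted p = 6.75e-08) passed the p threshold but not the fold threshold. The ligand and its receptor thus had fold changes of opposite sign with ConA.

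FAS encodes the death receptor for FAS ligand, whose gene FASLG had no row in either table. Its counts were 1558, 1570 and 1486 in PMA controls and 1094, 1138 and 1109 with PMA. ConA controls held 1683, 1656 and 1651 and ConA libraries 2382, 2629 and 2696. The treated libraries lay below the controls with PMA and above them with ConA, without overlap in either table. The log2 fold changes of -0.47 (95% interval -0.57 to -0.36, limma adjusted p = 5.14e-06) and 0.63 (95% interval 0.50 to 0.75, limma adjusted p = 5.56e-07) both missed the fold threshold.

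TNFRSF1A encodes TNFR1, the broadly expressed TNF receptor with a death domain. PMA controls held 7907, 7620 and 8046 normalized counts and PMA libraries 4602, 4710 and 4786. ConA controls held 10817, 11401 and 11149 and ConA libraries 7939, 7500 and 7465. It was the one gene of the 9 that lay below the controls with an adjusted p past the threshold in both tables, with control-to-treated ratios of 1.67 for PMA and 1.46 for ConA. The log2 fold changes of -0.74 (limma adjusted p = 1.55e-08) and -0.54 (limma adjusted p = 4.11e-07) missed the fold threshold.

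TNFRSF1B encodes TNFR2, a TNF receptor without a death domain that is abundant on leukocytes. In the ConA table its normalized counts were 37.5, 48.0 and 33.1 in the controls and 739, 869 and 1028 with ConA. The groups were far apart, with a 22.2-fold increase and a log2 fold change of 4.44 (95% interval 4.12 to 4.77, limma adjusted p = 7.2e-12). PMA controls held 189, 132 and 166 and PMA libraries 236, 299 and 450. All PMA libraries were above all controls, but they differed among themselves, and the log2 fold change of 0.97 (95% interval 0.53 to 1.42, limma adjusted p = 0.00147) did not pass the thresholds. Without PMA replicate 3, the highest library, the log2 fold change was 0.72. With any other single library left out it was 0.83 to 1.19, and after quantile normalization it was 1.11. The gene was called in none of these fits.

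T and NK cell markers of the PMA table are given beside TNFRSF1B. PTPRC, the pan-leukocyte gene CD45, held 187, 177 and 176 normalized counts in the PMA controls and 168, 232 and 328 with PMA. CD3E, a chain of the T cell receptor complex, held 110, 125 and 116 and then 177, 199 and 234. PMA replicate 3, which had the most TNFRSF1B, was also the highest of the 6 libraries for both. It was the highest too for CD2, CD3D, CD7, NKG7, GNLY, GZMB and CCL5, whereas CD3G was highest in PMA replicate 2 (76.0). PMA replicate 1 lay above every control for TNFRSF1B (236) and for CD3E, CD3G, NKG7, GNLY, GZMB and CCL5. The same library lay below every control for PTPRC (168) and CD3D (73.1) and within the control range for CD2 and CD7. In the ConA table neither PTPRC nor CD3E had a row. TNFRSF1B was there lower in every control than in any control of the PMA table, though the tables were normalized separately. The part of these markers in the PMA values of TNFRSF1B was not tested. Of the 10 markers, GNLY (log2 fold change 1.5) and CCL5 (1.16) were called with PMA and the other 8, PTPRC (0.38) and CD3E (0.78) among them, were not. CCL5, at 96.9 to 108 in ConA controls and 34592 to 52639 with ConA, was the one called in the ConA table. CD3D, which encodes another chain of the T cell receptor complex, stayed between 21.6 and 31.0 there.

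**Figure D2:**
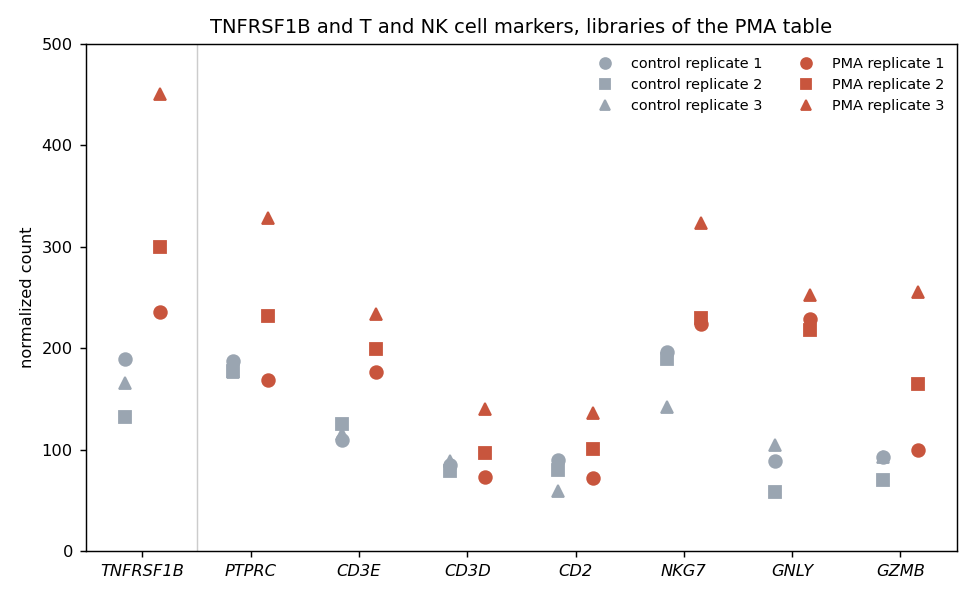
Normalized counts (linear axis) of TNFRSF1B and of 7 T and NK cell markers in the 3 control libraries (grey) and 3 PMA libraries (red) of the PMA table, with a symbol for each replicate number. PMA replicate 3 (red triangle) is the highest library for TNFRSF1B (450), PTPRC (328) and CD3E (234).

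TNFRSF12A encodes FN14, the TWEAK receptor, which lacks a death domain. PMA controls held 8003, 8438 and 7391 normalized counts and PMA libraries 16133, 17082 and 17345. Every PMA library was above every control, and the gene rose 2.12-fold (log2 fold change 1.09, 95% interval 0.97 to 1.20, limma adjusted p = 7.73e-09). After quantile normalization the log2 fold change was 0.90, under the fold threshold. ConA controls held 8575, 9694 and 9606 and ConA libraries 10362, 8674 and 9262. These groups overlapped, and the log2 fold change was 0.02 (95% interval -0.13 to 0.17, limma adjusted p = 0.812, exact permutation p = 0.9), which turned to -0.04 when the medians of the libraries were aligned.

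CD40 encodes a receptor without a death domain that is best known on antigen-presenting cells. Its normalized counts were low throughout, at 12.9, 9.84 and 8.12 in PMA controls and 5.80, 19.0 and 13.2 with PMA. These groups overlapped (exact permutation p = 0.6), and the 95% interval of the log2 fold change ran from -0.82 to 1.14, so a rise as large as the fold threshold lay within it, and no difference was detectable at this depth. ConA controls held 12.5, 9.01 and 26.1 and ConA libraries 87.1, 135 and 118. All ConA libraries were well above the controls, and the log2 fold change was 2.87 (95% interval 2.19 to 3.54, limma adjusted p = 2.06e-06). The control spread was wide, and without a variance trend in limma the adjusted p was 0.00119.

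**Figure D3:**
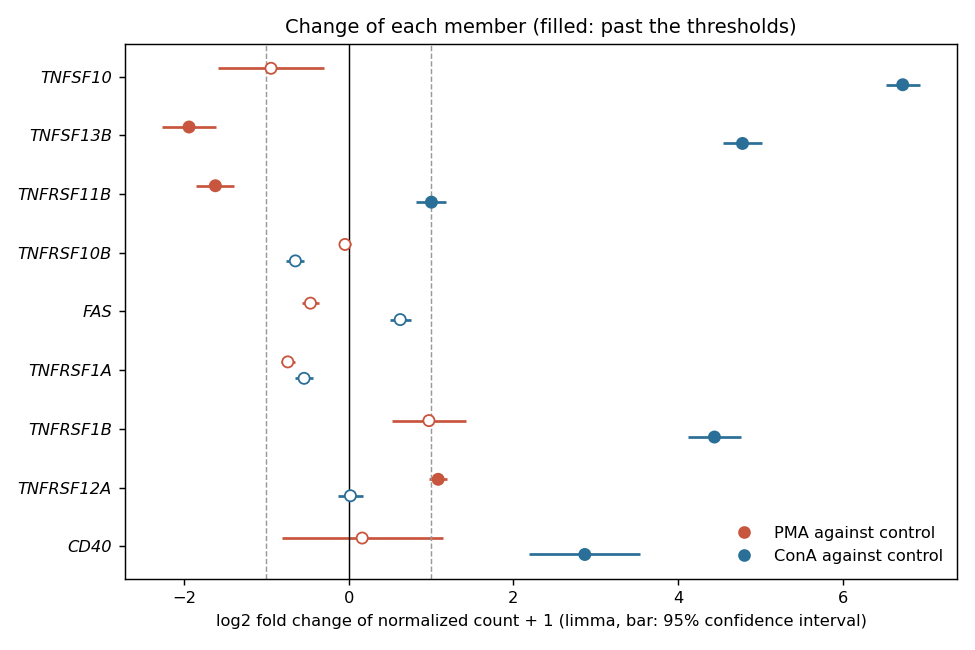
Log2 fold change of each gene with PMA (red) and ConA (blue) against the controls of the same table, with 95% confidence intervals from limma. Filled points passed the thresholds of size 1 (dashed lines) and adjusted p of 0.0001. TNFSF10 (6.73) lies farthest to the right with ConA and TNFSF13B (-1.94) farthest to the left with PMA.

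Whether the 2 treatments differed was tested directly, by subtracting the ConA effect from the PMA effect in a fit of all 12 libraries with 4 group means. Of the 9 genes, 6 passed the thresholds, where 10.6% of 15030 genes did. Both ligands had the widest gaps among the 9. TNFSF10 differed by -7.68 on the log2 scale (95% interval -8.34 to -7.01, limma adjusted p = 9.94e-13). For TNFSF13B the difference was -6.73 (95% interval -7.07 to -6.38, limma adjusted p = 5.61e-16). Of the receptors, TNFRSF1B (-3.47), TNFRSF11B (-2.63) and FAS (-1.09) were also lower with PMA relative to ConA, and TNFRSF12A (1.07) was the one that was higher. FAS passed here although it was called with neither treatment alone, since its fold changes had opposite signs. CD40 (-2.71, limma adjusted p = 0.000483), TNFRSF10B (0.60, limma adjusted p = 7.06e-08) and TNFRSF1A (-0.20, 95% interval -0.33 to -0.07) did not pass. The PMA controls and the ConA controls are different libraries, so the comparisons share no sample. Each effect was taken within its own table, so treatment and table go together in this test. A difference between treatments cannot be told apart from an effect that depends on the table. TNFRSF1B started from unequal levels, at 162.5 ± 28.5 in PMA controls and 39.5 ± 7.69 in ConA controls (SD, n = 3), though the tables were normalized separately.

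Levels of different genes were compared as normalized counts per kilobase of exon, on the lengths of GENCODE v29. In PMA controls the order was TNFRSF10B (8558 ± 58.9), TNFRSF12A (5703 ± 378), TNFRSF1A (2639 ± 73.1), FAS (596 ± 17.7), TNFRSF11B (105 ± 3.39), TNFSF13B (45.9 ± 1.22), TNFRSF1B (43.99 ± 7.72), TNFSF10 (32.0 ± 8.45) and CD40 (5.45 ± 1.28), all SD with n = 3. Neighbours in this order overlapped between libraries only for TNFSF13B with TNFRSF1B and for TNFRSF1B with TNFSF10. In ConA controls the first 6 genes kept this order, TNFSF10 (30.3 ± 3.19) came 7th, and TNFRSF1B (10.7 ± 2.08) and CD40 (8.40 ± 4.77) overlapped. Untreated cells thus held far more transcript of the death receptors TNFRSF10B, TNFRSF1A and FAS than of either ligand.

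With PMA, TNFRSF12A (12098 ± 458 per kilobase) came ahead of TNFRSF10B (8290 ± 11.4), and TNFSF10 (16.9 ± 6.85) and TNFSF13B (11.7 ± 0.71) overlapped near the end of the order. With ConA, TNFSF10 reached 3274 ± 334 per kilobase, rank 3 of the 9, between TNFRSF10B (5563 ± 91.0) and TNFRSF1A (2565 ± 88.8). TNFSF13B (1559 ± 167) came ahead of FAS (995 ± 64.0). The decoy TNFRSF11B, at 292 ± 14.6, then stood below the ligand TNFSF10 that it can bind, whereas in ConA controls it stood above it (146 ± 12.5 against 30.3 ± 3.19). No neighbours overlapped among the ConA libraries.

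Beyond these genes, 5 further lists of the pathway with 79 genes were read from the same fits, of which 67 were tested with PMA and 65 with ConA. In all, 10 rose and 4 fell with PMA and 14 rose and 0 fell with ConA, with median log2 fold changes of 0.1 and 0.43. Over all genes tested, 4.03% rose and 4.61% fell with PMA and 5.83% rose and 2.88% fell with ConA, and the counts of each list below stand beside these shares. Calls beyond the 3 with the largest changes of a list were named after their values were seen.

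Among the other ligands, 4 of 12 tested rose and 1 fell with PMA (median 0.29). TNFSF15, the ligand TL1A, held 96.6 to 105 in the controls and 797 to 899 with PMA (log2 fold change 3.10) and TNFSF14, the ligand LIGHT, went from 18.8 ± 2.56 to 137 ± 3.30 (SD, n = 3, log2 fold change 2.81, both limma adjusted p at most 7.1e-08). TNFSF8, the CD30 ligand (1.88), and TNF (1.85, from 14.8 ± 2.09 to 56.8 ± 13.1) also rose, and TNFSF9, the 4-1BB ligand, fell (-1.06). TNF, TNFSF14, TNFSF8 and LTB are also made by T and NK cells, whose markers in these libraries are given above. Whether such cells or their RNA were present, and with what part in these values, was not tested. With ConA 3 of 10 rose and 0 fell (median 0.43). Lymphotoxin beta, LTB, went from 3.35 ± 2.50 to 81.7 ± 18.9 (log2 fold change 4.40), TNFSF14 from 4.06 ± 2.01 to 34.3 ± 7.06 (2.86) and TNF from 8.77 ± 1.37 to 42.5 ± 5.77 (2.15). At these levels of LTB and TNFSF14 in controls, fold changes depend on the 1 added to each count. Leaving out 1 library ended some calls of these ligands. TNF lost its PMA call without control replicate 1 or 2 or any one PMA library (log2 fold changes 1.67 to 1.95) and its ConA call without ConA replicate 2 (2.16) or 3 (2.06). TNFSF9 lost its PMA call without control replicate 3 (-0.96) or PMA replicate 3 (-0.92), and TNFSF14 its ConA call without ConA replicate 1 (2.78) or 3 (2.77). In the PMA table LTB held 144 to 349 normalized counts in the controls and 308 to 527 with PMA (log2 fold change 0.76, limma adjusted p = 0.0339, not called), far above its ConA controls, though the tables were normalized separately. The difference between treatments passed for TNFSF15 (2.15), LTB (-3.64, from these unequal starting levels), TNFSF9 (-1.47) and CD70 (-1.25).

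Among the other receptors, 1 of 14 rose and 3 fell with PMA (median -0.11). TNFRSF21, the death receptor DR6, fell from 3848 ± 160 to 1018 ± 85.9 (log2 fold change -1.92, limma adjusted p = 3.29e-10). NGFR, the neurotrophin receptor p75 with a death domain, and TNFRSF19 also fell (log2 fold changes -2.39 and -1.48), and RELT rose (1.19). With ConA 3 of 14 rose and 0 fell (median 0.62). TNFRSF8, the receptor CD30, went from 64.9 ± 25.3 to 584 ± 50.6 (log2 fold change 3.23) and TNFRSF9, the receptor 4-1BB, from 432 ± 12.0 to 1642 ± 126 (1.92). NGFR rose with ConA (1.03), close to the fold threshold, and was not called without ConA replicate 2 (0.99), with a pseudocount of 10 (0.97), after quantile normalization (0.94) or median centring (0.97), or without a variance trend (limma adjusted p = 0.000108). The treatments differed for 6 of the 14, all lower with PMA relative to ConA, where 10.6% of all genes differed in either direction.

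Of the 13 genes tested of the death-inducing complex and caspases, CFLAR alone was called with PMA (median 0.09). CFLAR encodes c-FLIP, which blocks caspase-8 at the receptor complex, and went from 1140 ± 32.1 to 2875 ± 68.8 (log2 fold change 1.33, limma adjusted p = 4.24e-10). With ConA 4 of 13 rose and 0 fell (median 0.64). They included CFLAR, from 1114 ± 26.0 to 3942 ± 363 (1.82), and the initiator caspases CASP8, from 869 ± 54.0 to 1915 ± 190 (1.14), and CASP10 (1.08, and 0.98 after quantile normalization, which ended its call). The fourth was MLKL, the pore-forming effector of necroptosis (1.55). The list thus held both an inhibitor and effectors among the genes that rose.

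Of 21 TRAF adaptors and genes of the receptor ubiquitin machinery, 4 rose and 0 fell with PMA (median 0.37) and 4 rose and 0 fell with ConA (median 0.36). They were TRAF1, BIRC3, TNFAIP3 and TNIP1 in both tables, all regulators of NF-kB signaling downstream of these receptors. TNFAIP3, the deubiquitinase A20, went from 528 ± 21.1 to 4014 ± 11.3 with PMA (log2 fold change 2.92) and from 458 ± 45.7 to 7829 ± 1207 with ConA (4.09). BIRC3, the ubiquitin ligase cIAP2, had log2 fold changes of 2.19 and 4.11, and both genes differed between treatments (-1.16 for TNFAIP3 and -1.92 for BIRC3). Of the 7 sheddases and processing genes, including ADAM17 and FURIN, 0 rose and 0 fell with either treatment, and their log2 fold changes spanned -0.69 to 0.61 in the PMA table and -0.16 to 0.83 in the ConA table.

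**Figure D4:**
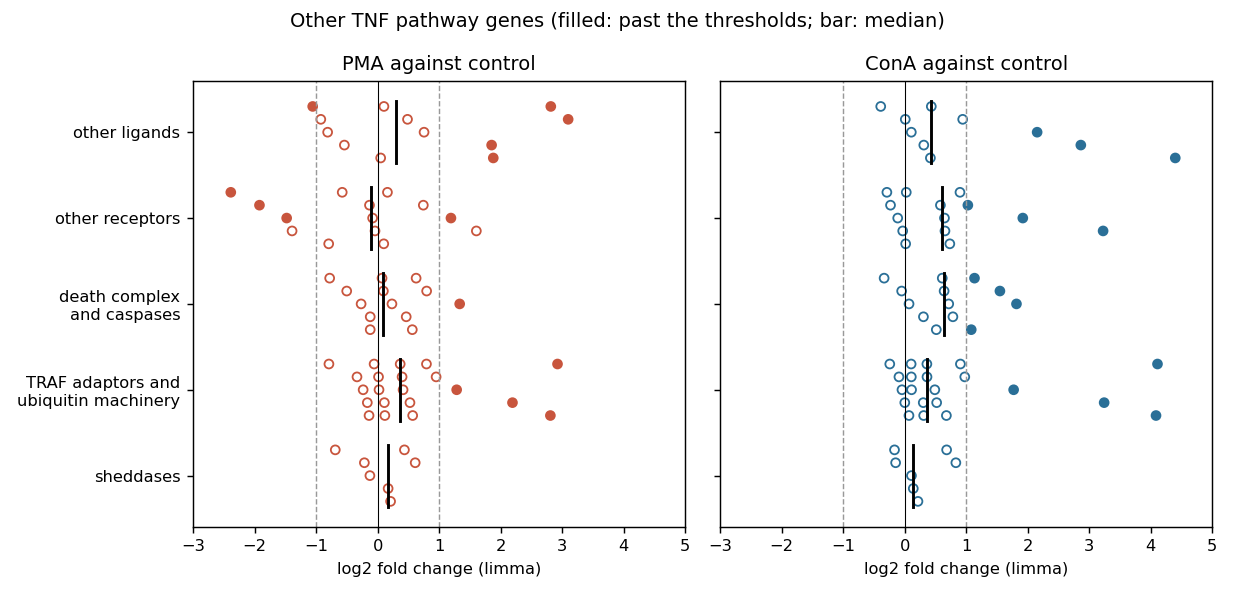
Log2 fold change of each further pathway gene tested with PMA (left) and ConA (right), by list, with a bar at each list's median. Filled points passed the thresholds, 14 of 67 with PMA and 14 of 65 with ConA, and no filled point lies to the left of zero with ConA.

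The genes whose pair of log2 fold changes lay nearest to each called gene, among all genes tested in both tables, were named as a description of the pattern. Nearest to TNFSF10 were RSAD2 (-1.50 with PMA and 7.38 with ConA), at a Euclidean distance of 0.85, BST2 (0.99) and CEACAM1 (1.02). Nearest to TNFSF13B were XAF1 (-1.93 and 4.53), at 0.25, SLC15A3 (0.60) and IFITM1 (0.62). For TNFRSF1B they were IL2RG (0.19), LTB (0.22) and RIPOR2 (0.40), and for TNFRSF11B LZTS1 (0.14), KLF4 (0.15) and SLC5A4-AS1 (0.17). Nearest to TNFRSF12A were GDNF (0.01), ZNF185 (0.02) and MAD1L1 (0.05), and to CD40 IL15RA (0.05), ITGAM (0.07) and L3MBTL4 (0.13). TNFSF10, which also had the largest fold change of the 6, had no gene closer than 0.85, the widest such gap. The gap was not compared with those of other genes with changes of that size.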

How the data were processed

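RNA-seq was analysed in 12 HT1080 libraries, 3 in each of 4 groups taken from the sample labels. Each gene's signal value, as deposited by the authors, is a normalized read count, and the 2 tables were normalized separately. The submitters' processing notes name Partek, STAR, Bowtie2 and DESeq2 and the builds hg19 and mm10, without roles or versions, and no more is given in the sources used here. In each library 80.2 to 82.6% of values between 5 and 60 lay within 0.02 of a whole multiple of the library's step, from which depth was estimated, and no count model was fitted.

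Values were transformed to log2(normalized count + 1), genes with a mean of at least 10 were kept, and limma 3.58.1 (R 4.3.3, with a variance trend) gave fold changes, which the added 1 lowers for weakly expressed genes. The steps were tested on simulated data. Tables were handled in Python 3.11.15 with pandas 2.3.3 and plotted with matplotlib 3.10.9. Exon lengths came from GENCODE v29 and promoter windows from RefSeq (GRCh38.p14), which is not the build of the notes, so no coordinate of the files was used.

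The members, lists and thresholds were chosen with earlier results of these data known. All 10 members were named, then the called genes of each list (up to 3 per list and treatment by size) and the 3 nearest genes of each called member. Alternatives were the pseudocount, the minimum, the scaling, the variance trend, the p threshold, a joint fit, a replicate block and each library left out. The sum of T and NK markers without CCL5 was added after seeing the data.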

Additional observations from a re-analysis of the deposited data

Results flagged for a closer look

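The PMA effect less the ConA effect passed the thresholds of the direct test for 6 genes, in a test where treatment and table go together. On the log2 scale it was -7.68 for TNFSF10, -6.73 for TNFSF13B, -2.63 for TNFRSF11B, -3.47 for TNFRSF1B, 1.07 for TNFRSF12A and -1.09 for FAS. TNFSF13B and TNFRSF11B were called in opposite directions with the 2 treatments, and TNFRSF12A was called with PMA alone. T and NK cell markers were listed in the PMA table, with GNLY and CCL5 called and the other 8 not, and their part in the difference of TNFRSF1B was not tested.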

How the results depend on the processing

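Without a variance trend in limma, the genes called fell to 867 with PMA and 662 with ConA, the members called with ConA to 3 (TNFSF10, TNFSF13B and TNFRSF1B) and the further pathway genes called with ConA to 8, and the cause was not tested. The ConA call of TNFRSF11B was also lost with a pseudocount of 10 (0.99), quantile normalization (0.90) and median centring (0.94). The log2 fold change of TNFRSF12A with ConA turned to -0.043 after median centring and ranged from -0.05 to 0.079 with each library left out. The PMA minus ConA difference of TNFRSF12A was 0.84 after quantile normalization and lost its call, and that of CD40 was called with a pseudocount of 10 (-2.17). Of the alternative values of the members, 441 kept their direction and their side of the thresholds, 9 lost a call, 2 gained one and 3 changed sign. Same-numbered PMA and control libraries showed little shared deviation (correlations of deviations -0.06, 0.10 and 0.10). These values cannot settle whether the numbers pair cultures, which the labels do not say. A replicate block left 3 members and 14 further pathway genes called with PMA and 1264 genes in all. No paired analysis was possible for ConA because its libraries and their controls share no replicate number. Depth limits CD40 most, at under 27 normalized counts in all libraries but those with ConA.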
